A study of Rattus norvegicus with 6 samples.

Results

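The transporters described here are 10 genes that carry amino acids across the plasma membrane, measured in c-kit+ bone marrow cells of ACI rats after phenylhydrazine (PHZ). They were chosen by name as the main carriers of glycine, glutamine, cationic amino acids, large neutral amino acids and cystine. The choice was made with earlier results of these data known, and all 10 were found among the 17172 genes listed. The PHZ group held 3 ACI rats given 100 mg/kg PHZ by intraperitoneal injection, and the PBS group held 3 ACI rats given phosphate-buffered saline by the same route. Rats were 6 to 8 weeks old, and marrow of the hind legs was taken 36 h after injection. In each group 2 rats were labelled female and 1 male, and no genetic alteration is given for either group. PHZ oxidises haemoglobin and so destroys red cells, and it serves as a model of haemolytic anaemia. Cells were selected with an antibody to c-kit, the stem cell factor receptor of stem and progenitor cells, bound to particles, so each library is a mixture of marrow cells. In such bulk samples, fewer cells of a type and less RNA per cell cannot be told apart.

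Erythroid precursors take up large amounts of glycine and glutamine. Glycine and succinyl-CoA are joined by ALAS2 in the first step of haem synthesis, and glutamine feeds the tricarboxylic acid cycle from which succinyl-CoA is drawn. SLC6A9, also called GLYT1, is the sodium- and chloride-coupled glycine transporter of erythroid cells, and mice without it make small, pale red cells. SLC1A4 and SLC1A5 exchange small neutral amino acids, SLC38 carriers bring in small neutral amino acids and glutamine with sodium, and SLC7A1 carries arginine and lysine. SLC7A5 and SLC7A11 are light chains that reach the membrane as pairs with the heavy chain SLC3A2.

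The libraries held 13196249 to 19492793 expected counts, and 13547 genes passed the filter on low counts. Kit, whose product was used for selection, stood at 33.9, 55.1 and 71.6 CPM in PHZ libraries and 54.9, 63.9 and 51.7 in PBS libraries. CPM are counts scaled to the library's total as adjusted by TMM. Markers of erythroid, granulocyte, lymphoid and stromal cells were all detected, so the selected cells were not of a single lineage. The summed level of 8 stromal and endothelial markers was 31.9 to 51.7 CPM in PHZ libraries and 85.0 to 611 CPM in PBS libraries, and the highest value belonged to PBS replicate 1, which stood apart. Y-linked transcripts went against the sex label in 3 libraries, PHZ replicate 3, PBS replicate 1 and PBS replicate 2, so results are also given without these libraries. Y-linked transcripts were present in 3 libraries where the labels name 2 male rats. The sample labels are therefore in doubt, and whether this reaches the treatment labels, on which every comparison here rests, was not tested.

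Of the 10 transporters, 4 rose in PHZ libraries, none fell and 6 were not called. Those that rose were Slc6a9, the glycine transporter (2.60-fold), Slc1a5, the glutamine exchanger (2.95-fold), Slc7a1, the arginine and lysine carrier (2.25-fold), and Slc38a5, a carrier of glutamine and glycine (1.78-fold). A call is an adjusted p under 0.05 in edgeR's quasi-likelihood test, with adjustment over all genes tested. Over those genes 13.2% were called, 8.99% higher and 4.17% lower in PHZ. DESeq2 also called 4 of the 10, and over all genes it called 1910 higher and 1559 lower, where edgeR called 1218 and 565. The median log2 fold change was 0.49 over the 10 transporters and -0.04 over all genes tested. PHZ and PBS values did not overlap for 5 of the 10 (4 higher, 1 lower), against 41.7% of all genes tested. The 10 were chosen with earlier results known, so these comparisons with all genes are only a description. The authors' deposited table labels Slc6a9, Slc7a1 and Slc1a5 as Up, a label that 3.18% of its genes carry (6.89% are labelled Down, none of the 10 among them) and that none below a log2 ratio of 1.00 has. In the authors' deposited table the log2 ratio of Slc38a5 is 0.79, and the gene has no label.

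**Figure D1:**
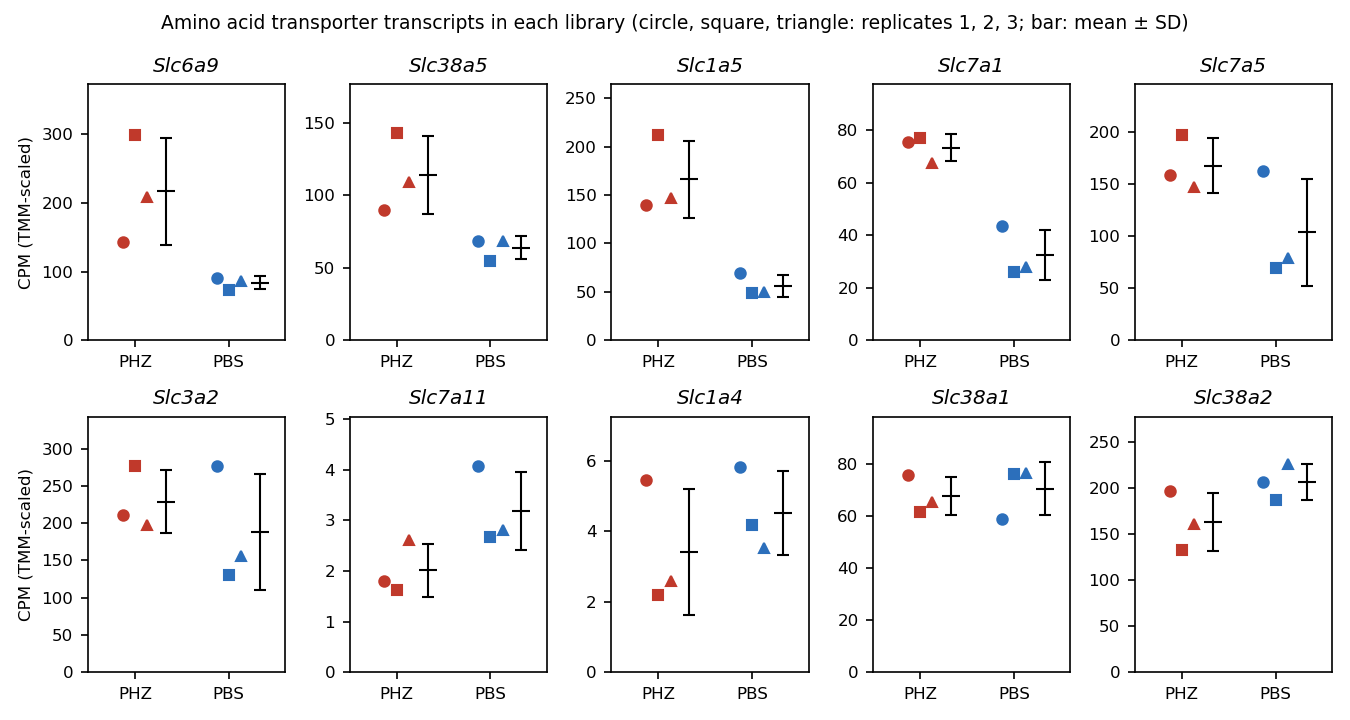
CPM (vertical axes, each starting at 0) of the 10 transporters in the 3 PHZ libraries (left) and the 3 PBS libraries (right) of each panel, with the mean and SD beside the points. All 3 PHZ points lie above all 3 PBS points for Slc6a9, Slc38a5, Slc1a5 and Slc7a1, and the PBS circle is high for Slc7a5 and Slc3a2.

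The calls rested on few libraries. Without PHZ replicate 2 or PHZ replicate 3 only Slc1a5 was called of the 10 (edgeR adjusted p = 0.0479 and 0.0451), and Slc6a9 then had adjusted p = 0.0637 and 0.0698. Without PBS replicate 2 or PBS replicate 3 edgeR called none of them, with adjusted p = 0.0969 and 0.114 for Slc1a5, and none of all genes (3325 and 3291 at an unadjusted p under 0.05). The 4 transporters had an unadjusted p under 0.05 in each of these 4 fits. Without PBS replicate 1, Slc38a5 was not called (edgeR adjusted p = 0.0612), while Slc7a5 was called. With the 3 libraries against their sex label left out, which leaves 1 PBS library, 1 residual degree of freedom remained and edgeR called no gene of all tested (1480 at an unadjusted p under 0.05, 3 of the 10 transporters among them), so that fit is given for its values only. The log2 fold changes of the 4 were 1.37 (Slc6a9), 1.81 (Slc1a5), 1.45 (Slc7a1) and 0.76 (Slc38a5). Slc38a5 was also not called with upper-quartile scaling (adjusted p = 0.0516).

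**Figure D2:**
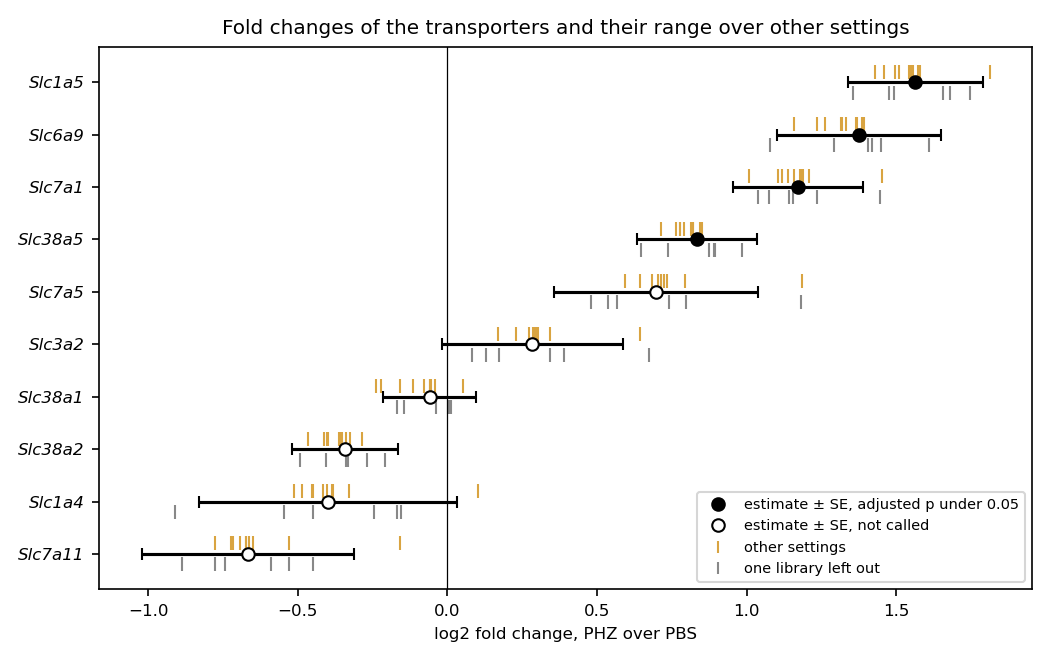
Log2 fold change of PHZ over PBS (horizontal axis) for each transporter with its SE, filled where called, and ticks for the same value under other settings and with 1 library left out. The ticks of Slc6a9, Slc1a5, Slc7a1 and Slc38a5 all lie above 0, between 0.65 and 1.81.

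Promoter sequences are shown for those of the risen transporters that were found in the RefSeq table of build GRCr8, because these genes rose together. Each runs 5′ to 3′ on the gene's strand from 250 bases before to 50 bases after the start. Capitals mark a match, on either strand, to the core of the amino acid response element (TGATGNAA), to the E-box (CACGTG) or to the GATA core, which is GATA after A or T and before A or G. No match overlaps another in the transporters' promoters. Slc6a9 lies at chr5:136659826-136660125 on the plus strand, Slc7a1 at chr12:11664238-11664537 on the plus strand and Slc38a5 at chrX:16894421-16894720 on the minus strand.
Slc6a9: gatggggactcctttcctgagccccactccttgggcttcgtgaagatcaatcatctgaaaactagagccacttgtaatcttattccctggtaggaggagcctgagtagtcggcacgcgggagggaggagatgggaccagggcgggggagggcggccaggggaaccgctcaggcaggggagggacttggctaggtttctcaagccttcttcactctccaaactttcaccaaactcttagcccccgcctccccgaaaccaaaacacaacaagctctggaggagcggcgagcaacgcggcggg
Slc7a1: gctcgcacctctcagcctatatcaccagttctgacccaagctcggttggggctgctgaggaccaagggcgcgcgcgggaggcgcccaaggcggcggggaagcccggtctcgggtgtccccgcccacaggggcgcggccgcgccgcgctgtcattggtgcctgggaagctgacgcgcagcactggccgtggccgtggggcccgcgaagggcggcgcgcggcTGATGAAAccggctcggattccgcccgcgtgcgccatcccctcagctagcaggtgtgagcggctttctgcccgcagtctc
Slc38a5: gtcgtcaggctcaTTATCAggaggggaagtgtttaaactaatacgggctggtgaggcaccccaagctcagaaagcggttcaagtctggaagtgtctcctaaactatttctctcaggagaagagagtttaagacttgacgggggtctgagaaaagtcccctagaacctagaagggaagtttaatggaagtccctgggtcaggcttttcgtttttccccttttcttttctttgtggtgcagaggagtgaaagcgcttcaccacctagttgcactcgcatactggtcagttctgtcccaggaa

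Slc7a1 holds TGATGAAA, beginning 30 bases before the start, and Slc38a5 holds TTATCA, the reverse complement of TGATAA, beginning 237 bases before it. Of 10 promoters of 9 transporters in the table, 3 hold the amino acid response element core (3.98% of all 33469 promoters), 2 the E-box (6.42%) and 3 a GATA core (30.3%). The other windows with the response element core belong to Slc38a1, on chromosome 7 and 142 bases before the start, and to Slc1a4, on chromosome 14 and 235 bases before the start, where it reads on the opposite strand. Neither of these genes was called, and the E-box of Slc7a5, on chromosome 19, begins 179 bases before its start. The 3 windows are shown to compare the matches across the transporters.
Slc38a1: gggggaaactcTGATGCAAccaaccagtcc
Slc1a4: cgcctccagcgTTGCATCAtccagccagca
Slc7a5: catcatacgctcCACGTGcttcaacagacc

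Slc6a9 (Entrez gene 116509), the glycine transporter, stood at 143, 299 and 208 CPM in PHZ libraries and at 91.1, 73.0 and 86.2 CPM in PBS libraries. The lowest PHZ library was above the highest PBS library, and PHZ values were spread more widely. PHZ libraries averaged 217 ± 78.4 CPM and PBS libraries 83.5 ± 9.37 CPM (SD, n = 3 each), a log2 fold change of 1.38 ± 0.27 (SE; edgeR adjusted p = 0.0287). PHZ replicate 2 was the highest, and the log2 fold change without it was 1.08.

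Slc38a5 (Entrez gene 192208), which moves glutamine, glycine, serine and asparagine in exchange for protons, stood at 89.8, 142 and 109 CPM in PHZ libraries and at 68.2, 54.5 and 68.7 CPM in PBS libraries. The groups did not overlap, and as for Slc6a9 PHZ replicate 2 was highest and PBS replicate 2 lowest. The log2 fold change was 0.83 ± 0.20 (SE; edgeR adjusted p = 0.0425), the smallest of the 4. Its relatives Slc38a1 and Slc38a2, sodium-coupled carriers of small neutral amino acids that include glutamine and alanine, were not called. Slc38a2 (Entrez gene 29642) stood at 196, 133 and 160 CPM in PHZ libraries and at 206, 187 and 226 CPM in PBS libraries. The groups overlapped through PHZ replicate 1, and the log2 fold change was -0.34 ± 0.18 (SE; edgeR adjusted p = 0.219). Slc38a1 (Entrez gene 170567) stood at 76.1, 61.6 and 65.7 CPM in PHZ libraries and at 58.9, 76.4 and 76.7 CPM in PBS libraries. Its groups crossed, with a log2 fold change of -0.06 ± 0.16 (SE; edgeR adjusted p = 0.815) whose sign turned in 4 of 16 alternatives. The mean transcript length the authors deposited for Slc38a1, which has 3 transcripts, was 4235, 5400 and 5119 bases in PHZ libraries and 4172, 4768 and 4495 bases in PBS libraries, so the groups overlapped in that as well.

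Slc1a5 (Entrez gene 292657), which exchanges glutamine for other neutral amino acids, stood at 139, 212 and 147 CPM in PHZ libraries and at 69.3, 49.1 and 50.2 CPM in PBS libraries. Every PHZ library was above every PBS library. The gap between the groups was wider than the spread within PBS but not wider than that within PHZ. PHZ libraries averaged 166 ± 39.9 CPM and PBS libraries 56.2 ± 11.4 CPM (SD, n = 3 each), and the log2 fold change of 1.56 ± 0.23 (SE; edgeR adjusted p = 0.0187) was the highest of the 10. It was called in 12 of 16 alternatives, against 9 for Slc7a1, 8 for Slc6a9 and 6 for Slc38a5. Its close relative Slc1a4 (Entrez gene 305540), which carries serine, alanine and cysteine, was low, at 5.45, 2.19 and 2.61 CPM in PHZ libraries and 5.83, 4.19 and 3.54 CPM in PBS libraries. These values overlapped and rested on 34 to 115 counts a library, and Slc1a4 was not called (log2 fold change -0.40 ± 0.43, SE; edgeR adjusted p = 0.545).

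Slc7a1 (Entrez gene 25648), the main carrier of arginine and lysine in most cells, stood at 75.5, 76.9 and 67.4 CPM in PHZ libraries and at 43.6, 26.1 and 27.8 CPM in PBS libraries. PHZ values were close together and all above PBS, where replicate 1 was highest. PHZ libraries averaged 73.3 ± 5.10 CPM and PBS libraries 32.5 ± 9.61 CPM (SD, n = 3 each), a log2 fold change of 1.17 ± 0.22 (SE; edgeR adjusted p = 0.0247).

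Slc7a5 (Entrez gene 50719), the LAT1 light chain that carries leucine and other large neutral amino acids, stood at 159, 197 and 147 CPM in PHZ libraries and at 162, 69.6 and 78.5 CPM in PBS libraries. PBS replicate 1 reached the PHZ values while the other PBS libraries lay below them. Slc7a5 was not called (log2 fold change 0.70 ± 0.34, SE; edgeR adjusted p = 0.199), and without PBS replicate 1 the value was 1.18 (edgeR adjusted p = 0.0274, with 0.0274 to 0.467 over the 16 alternatives). The heavy chain gene Slc3a2 (Entrez gene 50567) stood at 211, 277 and 198 CPM in PHZ libraries and at 276, 131 and 157 CPM in PBS libraries. PBS replicate 1 was again the highest PBS library, here level with the highest PHZ library. Slc3a2 was not called (log2 fold change 0.28 ± 0.30, SE; edgeR adjusted p = 0.539), also without PBS replicate 1 (0.67; edgeR adjusted p = 0.0782). Slc7a11 (Entrez gene 310392), the light chain that imports cystine in exchange for glutamate, was the lowest of the 10, at 1.80, 1.62 and 2.61 CPM in PHZ libraries and 4.07, 2.68 and 2.82 CPM in PBS libraries. Every PHZ library was below every PBS library, on 26 to 67 counts a library. The difference was not called (log2 fold change -0.67 ± 0.35, SE; edgeR adjusted p = 0.229).

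PBS replicate 1 had the highest PBS value for 7 of the 10 transporters, and PBS replicate 2 the lowest for 8. Among PHZ libraries, replicate 2 was highest for 6 and lowest for the other 4. In its profile over the 6 libraries Slc6a9 was closest among the transporters to Slc1a5, with a root mean square difference of centred log2 CPM of 0.22. Slc38a1 lay at 0.23 from Slc38a2, and Slc7a5 at 0.23 from its partner Slc3a2, which was rank 54 of 8886 genes from Slc7a5. Of all genes compared, the closest to Slc6a9 were Metrn (0.049), Car2 (0.075), Ubac1 (0.094), Natd1 (0.096) and Klf1 (0.098). Metrn encodes a secreted protein and rested on 32 to 129 counts a library, so its first place is uncertain. Car2 is a carbonic anhydrase gene, and Klf1 the gene of an erythroid transcription factor. Klf1 stood at 367, 683 and 493 CPM in PHZ libraries and at 203, 174 and 177 CPM in PBS libraries, so its highest and lowest libraries within PHZ were those of Slc6a9.

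Levels were compared between genes in FPKM, which is per transcript length. In PHZ libraries the order of mean FPKM was Slc3a2 (123 ± 13.4), Slc1a5 (63.7 ± 8.77), Slc6a9 (62.4 ± 16.8), Slc38a5 (60.2 ± 7.53), Slc7a5 (47.9 ± 4.63), Slc38a2 (35.5 ± 10.5), Slc38a1 (14.2 ± 4.92), Slc7a1 (10.9 ± 1.26), Slc1a4 (1.78 ± 1.10) and Slc7a11 (0.223 ± 0.065; SD, n = 3 each). The ranges of Slc1a5 and Slc6a9, of Slc6a9 and Slc38a5, of Slc7a5 and Slc38a2, and of Slc38a1 and Slc7a1 overlapped between libraries. Within libraries Slc7a5 was above Slc38a2 in 3 of 3, while the order of the other pairs turned in at least 1 library. In PBS libraries the order of mean FPKM was Slc3a2 (106 ± 46.7), Slc38a2 (46.0 ± 2.32), Slc38a5 (34.7 ± 4.45), Slc7a5 (31.1 ± 16.2), Slc6a9 (25.4 ± 2.89), Slc1a5 (22.8 ± 5.29), Slc38a1 (16.1 ± 1.07), Slc7a1 (5.01 ± 1.62), Slc1a4 (2.38 ± 0.71) and Slc7a11 (0.367 ± 0.099; SD, n = 3 each). There Slc38a5, Slc7a5, Slc6a9 and Slc1a5 overlapped each with the next, and in none of these pairs was the order the same in all 3 libraries. Slc1a5 thus held the second place in PHZ and the sixth in PBS libraries, and Slc38a2 the sixth in PHZ and the second in PBS libraries, though Slc1a5 overlapped Slc6a9 in both groups. Of the summed FPKM of the 10 transporters, the 4 that rose made up 41.2%, 51.1% and 48.3% in PHZ libraries and 27.2%, 32.7% and 32.6% in PBS libraries, a description of genes chosen by the same comparison.

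**Figure D3:**
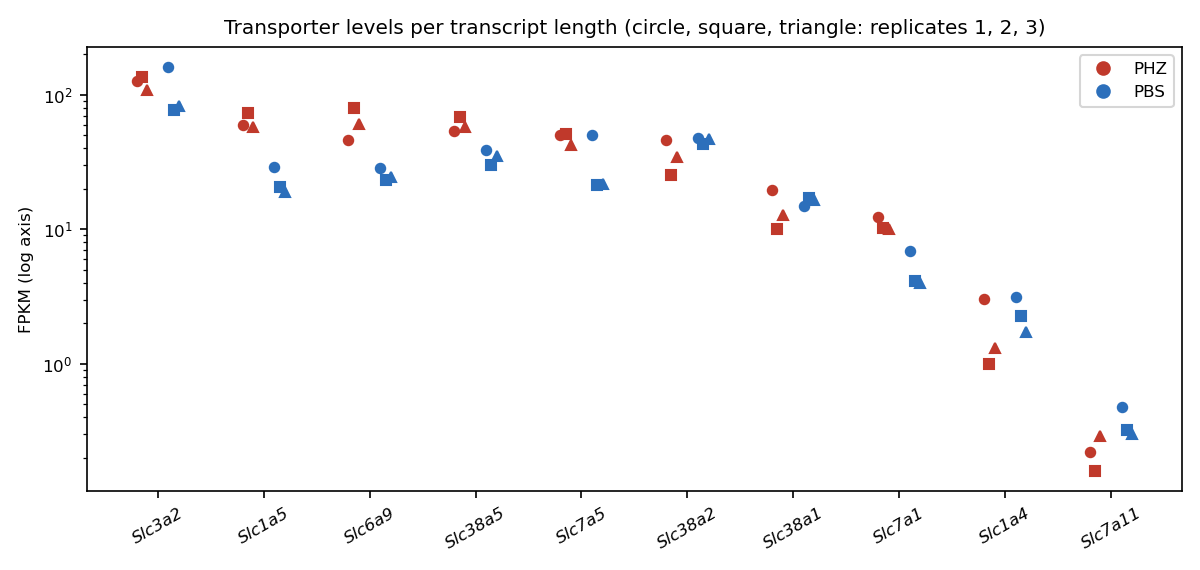
FPKM (log axis) of each transporter in each PHZ library (left of each pair) and PBS library (right), ordered by mean FPKM in PHZ. Slc3a2 is the most abundant in both groups, and Slc1a4 and Slc7a11 lie at 3.14 FPKM or below in every library.

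Because the light chains pair with the heavy chain, their FPKM ratios were compared within libraries. Slc7a5 per Slc3a2 was 0.397, 0.377 and 0.392 in PHZ libraries and 0.311, 0.281 and 0.265 in PBS libraries. The groups did not overlap, and PBS replicate 1, high for both genes, was close to the other PBS libraries in their ratio. Slc7a11 per Slc3a2 was 0.00174, 0.00119 and 0.00268 in PHZ libraries and 0.00299, 0.00419 and 0.00363 in PBS libraries. A pair of ratios within families was added after the values had been seen. Slc38a5 per Slc38a2 was 1.16, 2.69 and 1.67 in PHZ libraries and 0.823, 0.696 and 0.743 in PBS libraries. Slc1a5 per Slc1a4 was 19.7, 74.5 and 43.6 in PHZ libraries and 9.18, 9.04 and 11.0 in PBS libraries. No ratio overlapped between groups, and the mean log2 differences of PHZ minus PBS were 0.45, -1.01, 1.21 and 2.05 in the order given. Each gave p = 0.1 in a two-sided exact permutation test, also when adjusted over the 4 ratios. That is the smallest p that 3 libraries against 3 allow. For the pair of ratios added after the values had been seen, this p is only a description.

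Some erythroid markers were higher in PHZ libraries. Of 13 erythroid markers named, 11 were tested and 6 rose, none was at 0 in any library, and their sum, mostly globin transcripts, was 81850 to 240622 CPM in PHZ libraries and 91822 to 203568 CPM in PBS libraries. That sum overlapped, and PHZ replicate 1 was the lowest of all libraries in it. A second sum, chosen after the values had been seen, left out the globins, their chaperone gene Ahsp, and Alas2. Its 7 markers, Gata1, Klf1, Epor, Tfrc, Ank1, Slc4a1 and Rhag, encode erythroid regulators, receptors and membrane proteins, and Slc4a1 and Tfrc make up most of it. These 7 summed to 8425, 13061 and 11017 CPM in PHZ libraries and to 5981, 3974 and 4420 CPM in PBS libraries. The transporters were set against this sum, a description with no test. A gene that rises less than the sum is lower in PHZ on this scale by construction. Per 1000 CPM of these markers Slc6a9 had 17.0, 22.9 and 18.9 CPM in PHZ libraries and 15.2, 18.4 and 19.5 CPM in PBS libraries. On that scale Slc7a1 had 8.96, 5.89 and 6.12 CPM in PHZ libraries and 7.28, 6.58 and 6.30 CPM in PBS libraries. For both genes the groups overlapped once expressed in this way, with PHZ over PBS ratios of means of 1.11 and 1.04. Slc1a5 had 16.5, 16.2 and 13.4 CPM per 1000 in PHZ libraries and 11.6, 12.4 and 11.4 CPM in PBS libraries. With these 7 markers it alone of the 10 was higher in PHZ without overlap (ratio of means 1.31). On this scale Slc38a5 was lower in PHZ without overlap. It had 10.7, 10.9 and 9.90 CPM per 1000 in PHZ libraries and 11.4, 13.7 and 15.5 CPM in PBS libraries. Slc3a2, Slc7a11, Slc1a4, Slc38a1 and Slc38a2 were also lower in PHZ without overlap. Their ratios of means were 0.288 (Slc7a11) to 0.561 (Slc3a2), and Slc7a5 overlapped (0.758). The share of all genes without overlap on this scale was not computed, so these calls are not read as particular to the transporters. The overlap calls were the same with the geometric mean of these 7 markers, which leaves the choice of markers untested. Klf1, 1 of the 7, was rank 5 in closeness of profile to Slc6a9, so the overlap of Slc6a9 is not independent of the markers. Of the 7, Epor and Slc4a1 were not called (edgeR adjusted p = 0.0792 and 0.0537). The overlap calls depended on the choice of markers. With Ahsp and Alas2 kept, the sum was 10655, 18160 and 14515 CPM in PHZ libraries and 8363, 5655 and 7101 CPM in PBS libraries. Against that sum Slc6a9 was higher in PHZ without overlap, and Slc38a5, Slc38a1 and Slc1a4 overlapped.

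**Figure D4:**
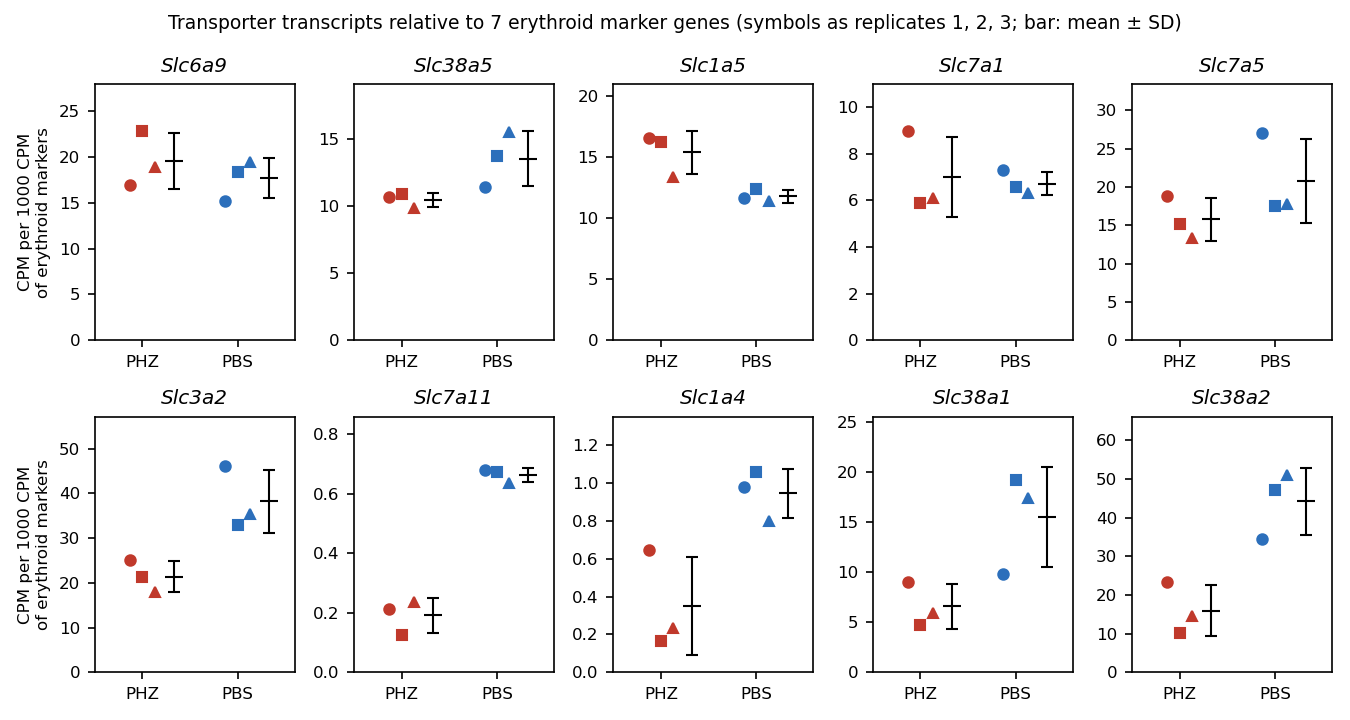
CPM of each transporter per 1000 CPM of 7 erythroid markers (vertical axes, each starting at 0) in the PHZ libraries (left) and PBS libraries (right) of each panel, with the mean and SD beside the points. Slc6a9 and Slc7a1 overlap between groups on this scale, and Slc1a5 is higher in PHZ. The result for Slc6a9 depended on the markers chosen.

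Markers of other cells were lower in PHZ or overlapped between groups. The summed CPM of 9 B lineage markers was 162 to 279 in PHZ libraries and 683 to 740 in PBS libraries (6 of 9 fell), and that of 10 T and NK lineage markers was 203 to 236 in PHZ libraries and 319 to 519 in PBS libraries (5 of 10 fell). Neutrophil markers had a summed CPM of 5330 to 10520 in PHZ libraries and 11950 to 22467 in PBS libraries (1 of 9 tested fell), with 1 of 10 at 0 in 3 libraries. Monocyte and macrophage markers had 1540 to 2037 in PHZ libraries and 1472 to 4153 in PBS libraries, where the highest value was PBS replicate 1 (edgeR called 0 of 10). Mast cell, basophil and eosinophil markers had 5782 to 9770 in PHZ libraries and 10019 to 14603 in PBS libraries, with no overlap (edgeR called 0 of 7 tested), and megakaryocyte markers had 88.5 to 104 in PHZ libraries and 101 to 158 in PBS libraries, with overlap (0 of 5 tested). Of stromal and endothelial markers 2 of 7 tested fell, with up to 2 of 8 at 0 in a PHZ library, and of stem and early progenitor markers 2 of 5 tested fell (134 to 201 summed CPM in PHZ libraries and 174 to 256 in PBS libraries). The part of these shifts in the transporter results was not tested.

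Other amino acid genes were read from 8 lists. Of 96 genes tested, 12 rose, 5 fell and 79 were not called, and the median log2 fold change was 0.04. Set beside the 8.99% of all genes called higher and the 4.17% called lower, these counts are not read as particular to amino acid genes, nor are those of single lists. Of 12 other plasma membrane transporters tested, 2 rose and 1 fell, with a median log2 fold change of -0.30. Slc43a1, a carrier of large neutral amino acids that needs no heavy chain, stood at 286, 459 and 375 CPM in PHZ libraries and at 223, 132 and 146 CPM in PBS libraries (2.23-fold; edgeR adjusted p = 0.0385). The imino acid carrier gene Slc6a20 rose 1.72-fold (edgeR adjusted p = 0.0439). Slc43a2, a relative of Slc43a1 with similar substrates, went the other way, at 53.4, 38.3 and 52.3 CPM in PHZ libraries and 71.6, 80.5 and 79.4 CPM in PBS libraries (1.61-fold lower; edgeR adjusted p = 0.0408). Of 10 genes in the lysosomal list, which includes the nucleoside carrier gene Slc29a3, 1 rose, Mfsd12, needed for cysteine import into lysosomes and melanosomes (1.58-fold; edgeR adjusted p = 0.0281), and the median was -0.38. Of 8 mitochondrial carriers tested, 1 fell, the sideroflexin gene Sfxn2 (1.58-fold lower; edgeR adjusted p = 0.0426), and the median was 0.18.

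The mitochondrial glycine carrier gene Slc25a38, whose loss causes sideroblastic anaemia in humans, stood at 65.5, 111 and 87.6 CPM in PHZ libraries and at 59.3, 52.9 and 49.8 CPM in PBS libraries. The groups did not overlap, yet it was not called (log2 fold change 0.70 ± 0.21, SE; edgeR adjusted p = 0.0660), and leaving out PHZ replicate 1 made it a call (edgeR adjusted p = 0.0292, with 0.0233 to 0.552 over the 16 alternatives). Alas2, which uses that glycine, stood at 1033, 2315 and 1745 CPM in PHZ libraries and at 1485, 961 and 1848 CPM in PBS libraries, and these values overlapped (log2 fold change 0.25 ± 0.36, SE; edgeR adjusted p = 0.658). Of 13 genes of glycine and serine metabolism tested, 3 rose and none fell, with a median log2 fold change of 0.29. Shmt2, the mitochondrial enzyme that makes glycine from serine, stood at 239.7, 212 and 146 CPM in PHZ libraries and at 75.6, 56.3 and 67.0 CPM in PBS libraries, and it rose 3.01-fold (edgeR adjusted p = 0.0184). Psat1, of serine synthesis, rose 1.80-fold and Dld, a subunit of the glycine cleavage system and of other dehydrogenases, 1.55-fold (edgeR adjusted p = 0.0240 and 0.0289).

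Of 13 enzymes of glutamine, glutamate and asparagine, 3 rose and none fell, with a median of 0.09. Asns, asparagine synthetase, stood at 273, 466 and 294 CPM in PHZ libraries and at 171, 90.0 and 100.5 CPM in PBS libraries (2.86-fold; edgeR adjusted p = 0.0333). Got2, the mitochondrial aspartate aminotransferase, rose 1.46-fold (edgeR adjusted p = 0.0486). Of 7 genes of cysteine and glutathione synthesis tested, 2 rose, the subunits of glutamate-cysteine ligase Gclc (1.98-fold; edgeR adjusted p = 0.0275) and Gclm (2.38-fold; edgeR adjusted p = 0.0298), none fell, and the median was 0.20. In the list of amino acid sensing by mTORC1, 2 of 22 genes fell and none rose, Sesn3, a sestrin (1.92-fold lower; edgeR adjusted p = 0.0238), and Lamtor4, of the Ragulator complex (1.49-fold lower; edgeR adjusted p = 0.0492), with a median of 0.01. Of 11 genes of eIF2 kinases and ATF4, Eif2ak1, the haem-regulated kinase, rose 1.73-fold (edgeR adjusted p = 0.0443) and Ddit3, the stress-induced factor CHOP, was 2.29-fold lower (edgeR adjusted p = 0.0222), and the median was -0.05. Atf4, which acts on amino acid response elements, stood at 747, 786 and 628 CPM in PHZ libraries and at 868, 998 and 905 CPM in PBS libraries and was not called (log2 fold change -0.36 ± 0.15, SE; edgeR adjusted p = 0.153). Without PBS replicate 2, PBS replicate 3 or PHZ replicate 2, edgeR called no gene of these lists (30, 28 and 31 of the 96 had an unadjusted p under 0.05), and without PHZ replicate 3 it called 3.

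**Figure D5:**
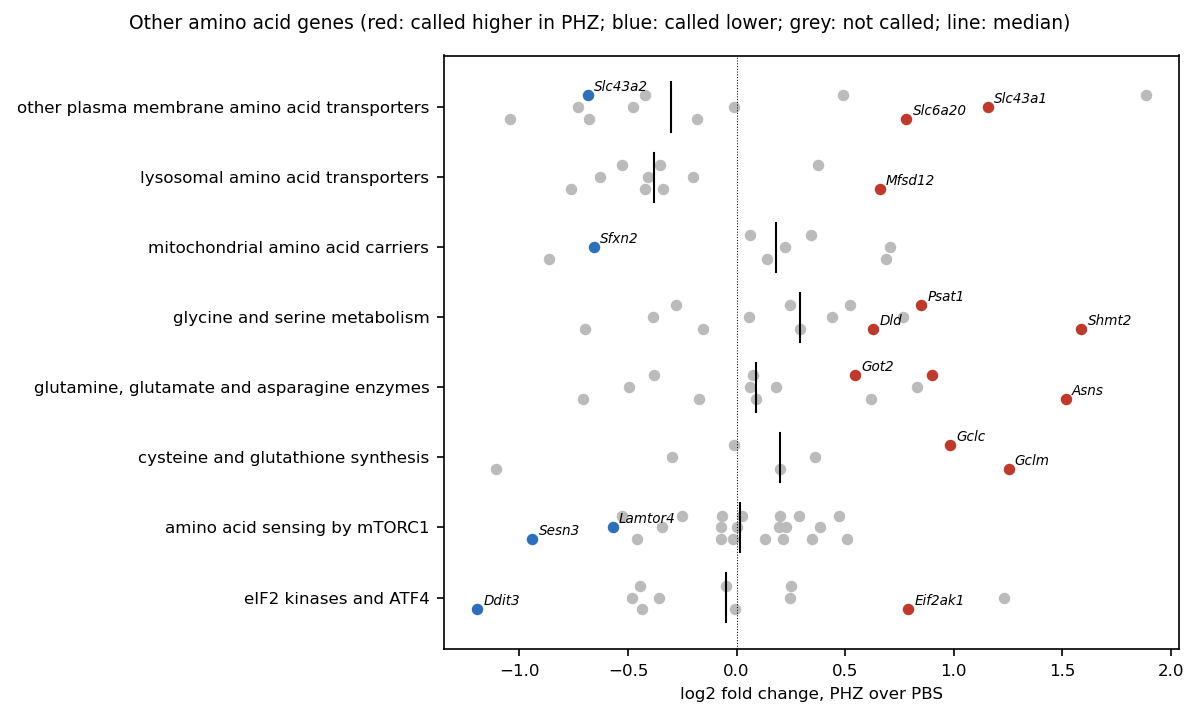
Log2 fold change of PHZ over PBS (horizontal axis) for each tested gene of 8 amino acid lists, with called genes coloured, all but 1 of them named, and the list's median as a line. Shmt2 and Asns lie farthest to the right among called genes and Ddit3 farthest to the left.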

How the data were processed

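Poly(A) RNA of c-kit+ marrow cells was sequenced in 6 libraries. Per the file headers, the authors deposited an expected count, which need not be whole, an FPKM value and a mean transcript length for each gene. Their comparison holds, per the file headers, an expression value for each group, a log2 fold change and a score named Probability. The values show that expression is the mean FPKM and that the fold change is PHZ over PBS. The submitters' processing notes name HISAT, GATK, RSEM and build rn6. Strand use in counting and the sharing of reads between related genes were not given in the sources used here, nor were versions and roles. Genes not listed in a library were set to 0.

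Expected counts were rounded and tested with edgeR 4.0.16 (R 4.3.3), using TMM scaling, filterByExpr, a robust quasi-likelihood fit and Benjamini-Hochberg adjustment over 13547 genes, with treatment as the only term, 4 residual degrees of freedom and a biological coefficient of variation of 35.2%. SEs were derived by dividing the size of a log2 fold change by the root of its F statistic. CPM values use TMM. The procedure was tested on simulated data. Alternatives used DESeq2 1.42.0, upper-quartile scaling, no filter, limma 3.58.1 on log2(FPKM + 1) and log2(FPKM + 0.1), removal of globin genes, sex or Y-linked transcripts as a covariate, a replicate block and leaving out libraries. A count of 0 in a library allows up to 3 counts, for counting error only. That is 0.154 to 0.227 CPM of the library's total, here without TMM. Replicates differed by more than sampling noise (chi-square per degree of freedom 48.3 to 176.5 within groups), so none were merged. The labels number rats within groups without tying any together. The edgeR p-values set the difference between groups against the spread between libraries within groups, which the fit moderates over all genes.

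The transporters and all lists were chosen with earlier results of these data known. From each list up to 3 called genes per direction with the smallest p were named, and also Slc25a38, Alas2, Atf4, Kit and the 5 genes, of average log2 CPM 2 or more, whose profiles were closest to that of Slc6a9. A result that this rule takes is left out of the text. Promoters came from RefSeq (GRCr8), whose build differs from that of the files.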

Additional observations from a re-analysis of the deposited data

How the results depend on the processing

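Among 13547 genes, 10 transporters and 96 genes of the other lists, 1783, 4 and 17 were called. DESeq2 called 3469 genes and 28 list genes, and limma on log2(FPKM + 0.1) called 11 list genes. With sex as labelled as a covariate 928, 2 and 6 were called, and with Y-linked transcripts as a covariate, chosen after seeing the data, 435, 1 and 5. With the 3 libraries against their sex label left out, which leaves 1 PBS library and 1 residual degree of freedom, edgeR called 0, 0 and 0 (1480, 3 and 10 at an unadjusted p under 0.05). With the replicate number as a block edgeR called 0, 0 and 0 (4641, 4 and 33 unadjusted). Deviations of libraries with the same number correlated at 0.2128, 0.0573 and 0.0045, so the numbers were not taken to pair the libraries. Libraries with the same number also share their sex label. With 1 library left out the counts ran from 0 to 1744 genes, 0 to 4 transporters and 0 to 18 list genes. The cause of this range was not tested, and each of these fits held 1 library fewer than the main fit.

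Among the alternatives fitted, direction turned for 4 genes, none of them called. Without the libraries against their sex label the log2 fold change was 0.10 for Slc1a4 and -0.13 for Alas2. With 1 library left out it ran from -0.038 (PHZ replicate 2) to 0.51 for Alas2, from -0.34 to 0.16 for Kit (above 0 without PHZ replicate 1 and, at 0.0079, without PBS replicate 2) and from -0.17 to 0.012 for Slc38a1 (above 0 without PHZ replicate 2 and, at 0.0034 and 0.0080, without PBS replicates 2 and 3). With the Y-linked covariate Slc38a1 stood at 0.052. The 4 called transporters kept their direction in all 16 alternatives. With 3 rats a group, calls rest on few degrees of freedom, and Slc7a11 and Slc1a4 on few counts.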

Other observations

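Further values were chosen after they had been seen, and carry no explanation. PBS replicate 1 was the highest PBS library for Chac1, Aldh18a1 and Slc1a3, and the lowest for Atf4, Ddit3 and Cebpb. Chac1, a glutathione-degrading enzyme gene induced by ATF4 in other cells, stood at 11.6, 29.7 and 7.05 CPM in PHZ libraries and at 41.1, 3.67 and 4.00 CPM in PBS libraries (edgeR adjusted p = 0.996). Aldh18a1, of proline synthesis, stood at 13.6, 22.9 and 15.1 CPM in PHZ libraries and at 19.4, 5.76 and 8.38 CPM in PBS libraries (edgeR adjusted p = 0.392). The glutamate transporter gene Slc1a3 stood at 15.2, 11.4 and 18.9 CPM in PHZ libraries and at 46.4, 11.8 and 14.6 CPM in PBS libraries (edgeR adjusted p = 0.420). In each of these the groups overlapped.

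Slc7a8, another light chain that pairs with Slc3a2, stood at 23.9, 23.8 and 29.5 CPM in PHZ libraries and at 78.3, 38.3 and 42.6 CPM in PBS libraries. The groups did not overlap, and the difference was not called (log2 fold change -1.04; edgeR adjusted p = 0.0599). The taurine transporter gene Slc6a6 stood at 126, 79.8 and 166 CPM in PHZ libraries and at 198.5, 215 and 205 CPM in PBS libraries, lower in each PHZ library and not called (edgeR adjusted p = 0.101). Trib3, a pseudokinase gene induced through ATF4, was low, at 7.68, 9.80 and 4.37 CPM in PHZ libraries and 3.40, 2.50 and 3.41 CPM in PBS libraries, and was not called (edgeR adjusted p = 0.0663).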
